A study of Mus musculus with 6 samples.

Results

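Small nucleolar RNAs (snoRNAs) and small Cajal body RNAs (scaRNAs) were followed as genes in the gastrocnemius, a hindlimb calf muscle, of mice with and without a muscle-specific knockout of Hnrnpu. A gene was included if its mouse symbol began with Snord, Snora or Scarna and a number, and if it had at least 30 counts summed over the 6 libraries. Of 49315 genes in the count tables, 150 matched by symbol (99 Snord, 42 Snora and 9 Scarna genes), and 49 of these reached the minimum. The 49 genes were 23 box C/D genes (Snord), 19 H/ACA genes (Snora) and 7 Scarna genes, which together held 85081 counts. Snord69 and Snord91a stood just inside the minimum with 31 counts each, and Snora62 and Scarna3b just outside it with 27 and 26. Below it, 69 genes had no count at all and the other 32 held 403 counts together.

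The study sequenced total RNA of 3 libraries labelled mKO, from mice carrying the muscle-specific Hnrnpu knockout, and 3 libraries labelled WT. All mice were 3 months old and of a mixed C57BL/6 and 129 background. Hnrnpu encodes a nuclear RNA-binding protein that takes part in splicing and in the organisation of chromatin. No source used here gives the deleted exons or the promoter that drove the recombination. The labels also do not say that each library came from a separate animal, so a p-value reflects how far these libraries vary, which may be technical.

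Many snoRNAs work as guides: each pairs with a target RNA inside a protein complex that modifies 1 nucleotide. Box C/D snoRNAs bind the methyltransferase fibrillarin and direct 2′-O-methylation, whereas H/ACA snoRNAs bind dyskerin and direct pseudouridylation, mostly of ribosomal RNA. scaRNAs carry either kind of box, or both, and guide the same modifications on spliceosomal RNAs in Cajal bodies. Most vertebrate snoRNAs lie in introns of host genes and are released when the host is spliced, and their bound core proteins protect the ends from exonucleases.

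The sequences of the genes that the results turn on are given 5′ to 3′ from the GENCODE M21 transcripts (GRCm38), to show which class each belongs to by its boxes. Capitals mark box C (TGATGA, searched in the first 20 bases) and box D (CTGA, searched in the last 20 bases) in the box C/D genes. In the H/ACA genes and Scarna13 they mark box H (ANANNA, within 20 bases of the middle) and the ACA box (in the last 10 bases). All searches were on the strand of the transcript.

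Snord104: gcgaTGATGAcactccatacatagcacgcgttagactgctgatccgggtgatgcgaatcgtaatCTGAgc
Snord17: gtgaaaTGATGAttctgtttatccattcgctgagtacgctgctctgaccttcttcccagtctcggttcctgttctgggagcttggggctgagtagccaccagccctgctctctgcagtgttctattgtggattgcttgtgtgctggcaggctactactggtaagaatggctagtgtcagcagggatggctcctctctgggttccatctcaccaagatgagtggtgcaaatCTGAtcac
Snora28: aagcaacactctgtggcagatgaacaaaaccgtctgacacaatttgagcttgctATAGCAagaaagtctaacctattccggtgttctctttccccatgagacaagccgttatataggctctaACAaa
Snora23: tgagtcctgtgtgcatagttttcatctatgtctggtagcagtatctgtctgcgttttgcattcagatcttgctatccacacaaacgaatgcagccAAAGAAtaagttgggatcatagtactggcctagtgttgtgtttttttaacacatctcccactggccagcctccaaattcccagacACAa
Snora34: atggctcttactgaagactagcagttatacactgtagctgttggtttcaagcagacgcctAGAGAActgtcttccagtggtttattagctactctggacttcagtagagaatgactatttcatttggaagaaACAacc
Snora78: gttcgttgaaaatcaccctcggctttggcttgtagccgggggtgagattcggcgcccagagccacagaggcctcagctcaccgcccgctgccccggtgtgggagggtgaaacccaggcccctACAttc
Snora73a: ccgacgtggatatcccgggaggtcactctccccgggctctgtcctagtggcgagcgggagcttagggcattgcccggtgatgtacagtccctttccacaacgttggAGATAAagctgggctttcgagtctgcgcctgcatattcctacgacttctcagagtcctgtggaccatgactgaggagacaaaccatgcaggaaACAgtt
Snora73b: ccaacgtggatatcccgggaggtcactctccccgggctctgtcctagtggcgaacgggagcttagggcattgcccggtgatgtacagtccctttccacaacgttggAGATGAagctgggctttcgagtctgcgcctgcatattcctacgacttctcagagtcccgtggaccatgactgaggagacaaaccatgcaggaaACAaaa
Scarna13: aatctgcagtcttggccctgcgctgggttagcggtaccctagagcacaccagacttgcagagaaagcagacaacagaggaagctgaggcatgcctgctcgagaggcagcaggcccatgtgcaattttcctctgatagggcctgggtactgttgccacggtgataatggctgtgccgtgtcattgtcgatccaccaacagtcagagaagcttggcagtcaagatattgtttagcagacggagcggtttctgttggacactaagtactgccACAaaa

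The symbols went with the boxes: the ACA box stood in 40 of 42 Snora genes (95.2%) and in 8 of 99 Snord genes (8.08%). Boxes C and D in these exact letters stood in 68 of 99 Snord genes (68.7%) and in 0 of 42 Snora genes. ANANNA near the middle was found in 39 of 42 Snora genes (92.9%) and in 68 of 99 Snord genes (68.7%), and neither Snora78 nor Scarna13 held it there. Among the 7 Scarna genes counted here, Scarna6, Scarna9, Scarna10 and Scarna17 held boxes C and D, Scarna3a and Scarna13 held the ACA box, and Scarna2 held neither in these windows. Snora73a and Snora73b, copies of the U17 snoRNA that acts in cleavage of the precursor of 18S ribosomal RNA, were identical at 198 of 205 positions (96.6%), so counts could be split between them. Both also overlap Gm17300 on the other strand, and Scarna13, Scarna3a, Snora19 and Snora36b each overlap an annotated microRNA gene. Libraries from a kit that keeps no strand, as named in the labels, cannot tell reads of overlapping genes apart.

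The libraries held between 32108684 and 42344238 counts, and the 49 genes took 0.0302 to 0.0436% of them in mKO libraries and 0.0380 to 0.0463% in WT libraries. Levels are given in CPM, the count scaled to the size of the library, with library sizes adjusted by the trimmed mean of M-values (TMM), whose factors were 1.16 to 1.20 in mKO and 0.845 to 0.859 in WT libraries. Hnrnpu itself averaged 208 ± 2.92 CPM in mKO and 239 ± 7.59 CPM in WT libraries (SD, n = 3 each), a log2 fold change of -0.20 that missed the threshold (edgeR adjusted p = 0.147) and turned to 0.27 with library totals (adjusted p = 0.0402). Because counts summed over all exons did not show the knockout, every direction below is that of the libraries as labelled. The 5 skeletal muscle fibre markers all fell, with a summed level of 36676 to 43280 CPM in mKO and 91741 to 105196 CPM in WT libraries, and the 5 macrophage markers all rose, with 181 to 257 CPM in mKO and 79.1 to 90.8 CPM in WT libraries. The 5 endothelial markers all fell (139 to 153 CPM in mKO, 221 to 291 CPM in WT libraries), 1 of 5 fibroblast markers rose, 2 of 4 satellite cell markers rose and 1 fell, and none of 4 Schwann cell or 3 adipocyte markers passed. With library totals, 4 fibre markers and 2 endothelial markers were still lower, all 5 macrophage markers and 4 fibroblast markers were higher, and 2 satellite cell markers were higher and none lower. Beside these markers, 18.2% of all genes rose and 18.9% fell with TMM, and 49.0% rose and 6.75% fell with library totals. None of these markers was at 0 in all libraries. In such bulk tissue, fewer cells of a type and less RNA per cell cannot be told apart, and the part of these markers in the results below was not tested.

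In mKO muscle, 6 H/ACA snoRNA genes and 4 scaRNA genes were lower, and 1 box C/D snoRNA gene was higher. Of the 49 genes, 34 passed the filter on low counts: 12 of 23 box C/D, 15 of 19 H/ACA and 7 of 7 Scarna genes. Past an edgeR adjusted p of 0.05, 6 H/ACA genes fell and none rose, 4 Scarna genes fell and none rose, and 1 box C/D gene rose and none fell. Across all 16650 genes tested, 37.0% passed, 18.2% higher and 18.9% lower. The share called lower was 40.0% of the tested H/ACA genes, 57.1% of the tested Scarna genes and 0% of the tested box C/D genes, beside 18.9% of all genes. The median log2 fold change was -0.74 over the tested H/ACA genes, -0.43 over the Scarna genes and 0.36 over the tested box C/D genes, beside 0.02 over all genes. Scaling by library totals in place of TMM moved the median of all genes by 0.465 on the log2 scale: 55.8% of all genes then passed, 49.0% higher and 6.75% lower, and of the 34 genes 4 rose (3 box C/D and 1 H/ACA) and 4 fell (3 H/ACA and 1 Scarna). Without mKO replicate 3, 5 of the 34 genes fell, 3 of them H/ACA and 2 Scarna, and none rose. The share of all genes called in that fit is not given here.

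The filter asks for a minimum level in at least as many libraries as a group holds, so a gene can pass through 1 group alone, and a second fit therefore took every gene with at least 30 counts in sum, which includes all 49. In it the median log2 fold change was -0.63 for the 19 H/ACA genes, 15 of them below 0, and -0.43 for the 7 Scarna genes, 5 of them below 0. For the 23 box C/D genes it was 0.25, with 16 above 0. The same fit called 5 H/ACA genes and 4 Scarna genes lower and 1 box C/D gene higher, against 17.2% lower and 16.5% higher over the 18416 genes it tested. No test compared the classes as such, and most box C/D genes had few counts: only 6 of the 12 tested had at least 10 counts in 2 libraries of both groups, compared with 13 of the 15 H/ACA genes. The 23 tested genes that missed the threshold are not thereby shown to be unaltered.

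**Figure D1:**
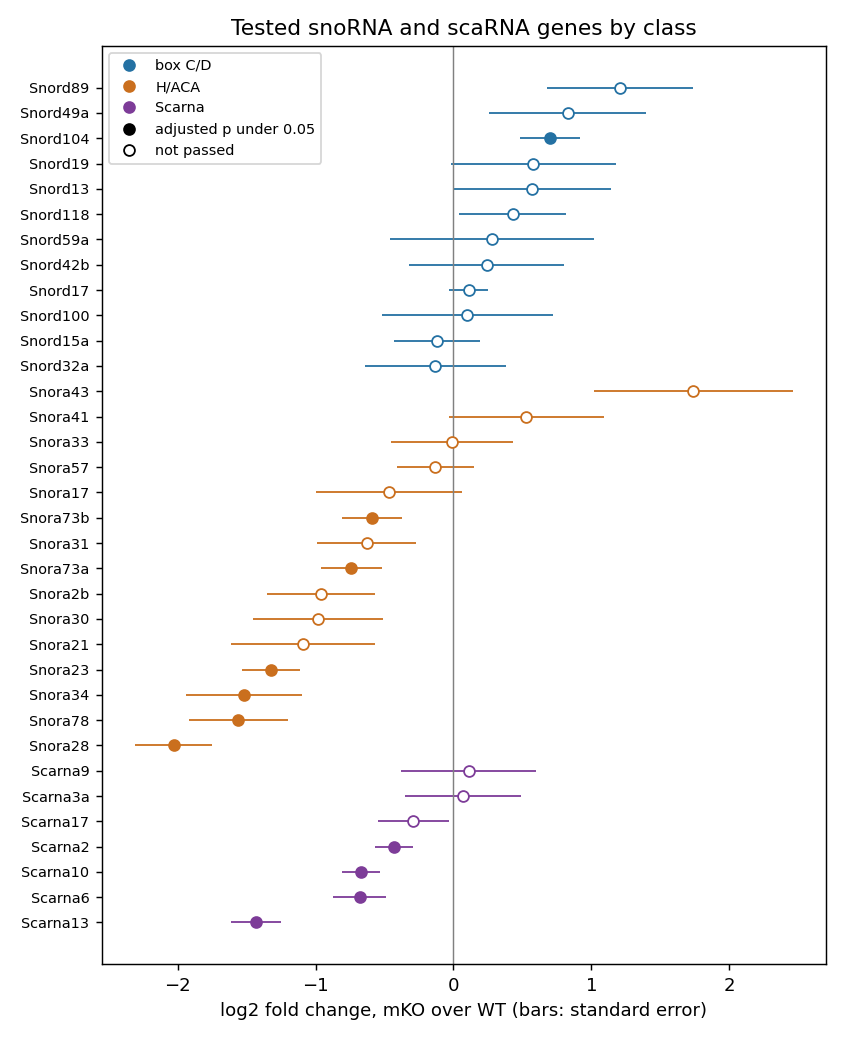
The log2 fold change of mKO over WT libraries (x axis, bars are the standard error) is plotted for the 34 tested genes, grouped by class on the y axis, with filled points for an adjusted p under 0.05. The H/ACA points reach from 1.74 for Snora43 to -2.03 for Snora28, with 6 filled points all below 0, while the box C/D points lie between -0.13 and 1.21 with Snord104 filled.

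Among the H/ACA genes, Snora28, which in humans guides a pseudouridine of 18S ribosomal RNA, fell the most. It had 31, 24 and 30 counts in mKO libraries and 93, 70 and 108 counts in WT libraries, which is 0.683, 0.539 and 0.810 CPM in mKO and 3.11, 2.15 and 3.02 CPM in WT. All 3 mKO libraries lay below all WT libraries, with a log2 fold change of -2.03 (SE 0.28, edgeR adjusted p = 0.000144), or 4.08-fold lower. Snora28 lies on chromosome 12 at 111540941 to 111541067, in an intron of Eif5, a translation initiation factor.

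Snora23, a guide to 28S ribosomal RNA in humans, had 4.05, 3.12 and 2.24 CPM in mKO libraries against 7.68, 7.66 and 8.20 CPM in WT libraries. The WT values were close together and the mKO values spread, yet the groups did not overlap (log2 fold change -1.32, SE 0.21, edgeR adjusted p = 0.000349). Snora78, which lies in the noncoding RNA gene Snhg9, had 0.903, 0.763 and 0.378 CPM in mKO libraries and 2.74, 1.78 and 1.62 CPM in WT libraries. It was 2.95-fold lower in mKO, without overlap (log2 fold change -1.56, SE 0.36, edgeR adjusted p = 0.00429). Snora28, Snora23 and Snora78 passed the threshold under every one of the 12 alternative fits, left-out libraries and scaling by library totals included.

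Snora34, in an intron of Kansl2, had 0.353, 0.427 and 0.189 CPM in mKO libraries and 1.04, 1.04 and 0.755 CPM in WT libraries. The groups did not overlap (log2 fold change -1.52, SE 0.42, edgeR adjusted p = 0.0133), but the call ended without mKO replicate 3 (adjusted p = 0.0559) and with library totals (0.0506). Its first 26 bases are also the letters of a microRNA, which the RefSeq table (GRCm38.p6) gives as mature mmu-miR-1291 with the seed in capitals.

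mmu-miR-1291: aUGGCUCUuacugaagacuagcaguu

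The gene row of Mir1291, which overlaps Snora34, held 28 counts in mKO and 20 counts in WT libraries in sum, and its log2 fold change of 0.09 missed the threshold (edgeR adjusted p = 0.927). Snora34 itself held 16, 19 and 7 counts in mKO and 31, 34 and 27 counts in WT libraries. The overlap means that a read could be assigned to either row or to none.

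Snora73a and Snora73b held most counts of the class. Snora73a had 34.7, 20.6 and 16.6 CPM in mKO libraries and 43.5, 43.9 and 32.5 CPM in WT libraries, and Snora73b had 27.4, 16.7 and 15 CPM in mKO and 38.2, 24.7 and 26.1 CPM in WT libraries. For both copies mKO replicate 1 lay inside the WT range, so the groups overlapped. Their log2 fold changes were -0.74 (SE 0.22, edgeR adjusted p = 0.0196) and -0.59 (SE 0.22, adjusted p = 0.0492). Both calls moved with single libraries: over the left-out libraries the adjusted p of Snora73a ranged from 0.000568 to 0.086 and that of Snora73b from 0.00417 to 0.201, and with library totals they were 0.339 and 0.663. Snora73a missed the threshold without mKO replicate 2, mKO replicate 3 or WT replicate 2, and Snora73b without mKO replicate 2, mKO replicate 3, WT replicate 1 or WT replicate 3. DESeq2 gave Snora73a an adjusted p of 0.110.

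Snora57, the remaining H/ACA gene among the 6 with the highest CPM, averaged 1.37 ± 0.185 CPM in mKO and 1.5 ± 0.326 CPM in WT libraries (SD, n = 3 each), with overlap (log2 fold change -0.13, edgeR adjusted p = 0.753). Snora2b, Snora30 and Snora21 also had no overlap between the groups, with log2 fold changes of -0.96, -0.98 and -1.09, but missed the threshold (edgeR adjusted p = 0.0732, 0.124 and 0.124). Snora43 went the other way, with 17, 15 and 13 counts in mKO and 8, 1 and 1 counts in WT libraries (log2 fold change 1.74, edgeR adjusted p = 0.0746). It passed the filter mainly through the mKO libraries, and a second annotated Snora43 at the same place held no counts. These 4 genes were singled out after their values were seen. The other 4 tested H/ACA genes, Snora31, Snora17, Snora33 and Snora41, had log2 fold changes of -0.63, -0.47, -0.01 and 0.53 and overlapping groups. Snora47, Snora20, Snora19 and Snora36b, with 32 to 47 counts in sum, were too low for the filter, and all 4 overlapped between groups.

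**Figure D2:**
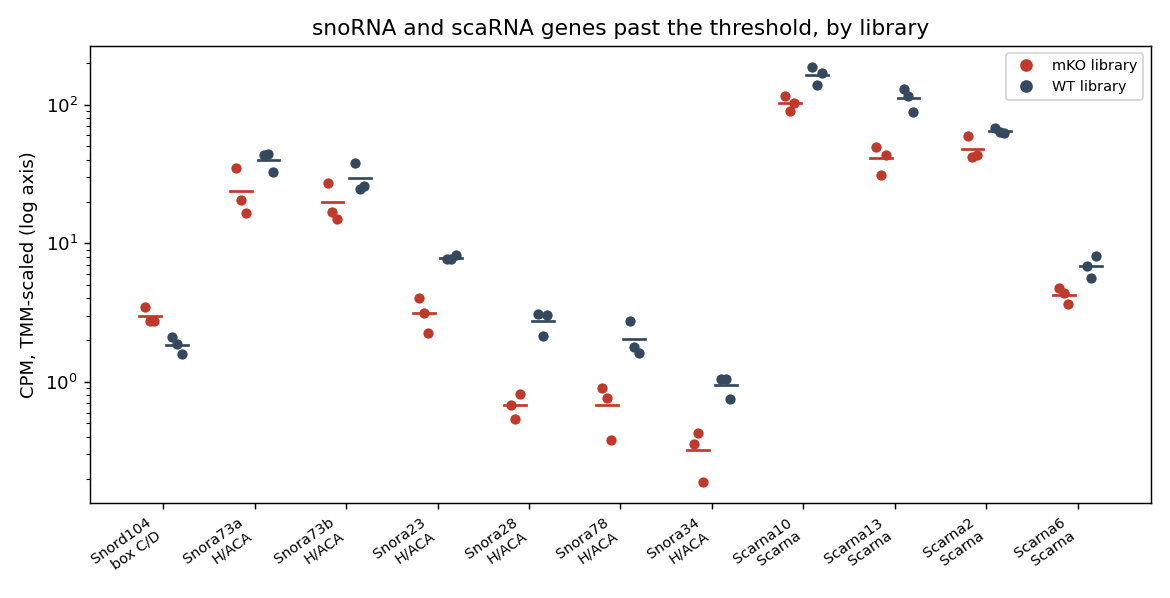
CPM on a log axis is plotted for each of the 11 genes past the threshold (x axis, with their class), with 1 point per library and a line at the group mean, mKO left of WT. All mKO points lie above the WT points in Snord104 and below them in 8 genes, and the groups overlap in Snora73a and Snora73b.

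The Scarna genes held more counts than the other classes together, led by Scarna10, Scarna13 and Scarna2. Scarna10 (U85), which in humans guides modification of the U5 spliceosomal RNA and carries both kinds of box, had 116, 90.1 and 103 CPM in mKO and 188, 138 and 168 CPM in WT libraries. Its log2 fold change was -0.67 without overlap (SE 0.14, edgeR adjusted p = 0.00212), and the call ended with library totals (-0.21, adjusted p = 0.229). Scarna10 overlaps an exon annotation of its host Ncapd2 and of Gm28967, so some of its reads could be theirs.

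Scarna13 (U93), an H/ACA scaRNA directed at U2 and U5 RNA in humans, changed the most of the class. It had 49.4, 30.9 and 43.1 CPM in mKO libraries against 129, 115 and 89.1 CPM in WT libraries, from 1375 to 2240 counts per mKO library and 3184 to 3862 counts per WT library. It was 2.70-fold lower in mKO without overlap (log2 fold change -1.43, SE 0.18, edgeR adjusted p = 5.5e-05) and passed under all 12 alternatives, with -0.97 under library totals.

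Scarna2, which in humans guides methylation of U2 RNA and has no host gene here, had 59.7, 41.6 and 43.3 CPM in mKO and 68.4, 63.8 and 62.0 CPM in WT libraries. The groups were close but did not overlap (log2 fold change -0.43, SE 0.14, edgeR adjusted p = 0.0286). Its direction turned to 0.04 with library totals, and the call was lost without mKO replicate 2, mKO replicate 3, WT replicate 1 or WT replicate 3, with an adjusted p of up to 0.136. Scarna6 averaged 4.25 ± 0.550 CPM in mKO and 6.82 ± 1.21 CPM in WT libraries (SD, n = 3 each), a log2 fold change of -0.68 (SE 0.19, edgeR adjusted p = 0.0123) that was lost without mKO replicate 3, without WT replicate 3 and with library totals.

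Scarna17, Scarna3a and Scarna9 missed the threshold, with log2 fold changes of -0.29, 0.07 and 0.11 and overlapping groups. Within the class, Scarna13 was also lower relative to Scarna10, which lies higher per length: there were 0.424, 0.343 and 0.418 Scarna13 counts per Scarna10 count in mKO libraries and 0.684, 0.834 and 0.530 in WT libraries. That ratio needs no scaling, and its groups did not overlap.

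Of the box C/D genes, Snord104 was the one called higher. It had 158, 123 and 102 counts in mKO and 63, 61 and 57 counts in WT libraries, or 3.48, 2.76 and 2.75 CPM in mKO and 2.10, 1.87 and 1.59 CPM in WT. All mKO libraries lay above all WT libraries (log2 fold change 0.70, SE 0.22, edgeR adjusted p = 0.0273), although 4 of the 6 fits with a library left out missed the threshold. These were the fits without mKO replicate 1 (adjusted p = 0.113), mKO replicate 3 (0.0525), WT replicate 2 (0.0501) or WT replicate 3 (0.0978). Snord104 guides methylation of 28S ribosomal RNA in humans, and lies on chromosome 11 at 106500993 to 106501062 with no host gene around it in the tables.

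Snord17, also a guide to 28S ribosomal RNA in humans, held 73.5 to 77.5% of the box C/D counts in mKO and 78.5 to 81.9% in WT libraries. It had 42.7, 30.2 and 28.9 CPM in mKO and 31.3, 30.6 and 32.4 CPM in WT libraries. Only mKO replicate 1 lay above the WT range, and the log2 fold change of 0.11 missed the threshold (SE 0.14, edgeR adjusted p = 0.581). With library totals it was 0.58 and passed (adjusted p = 0.00567), and without mKO replicate 1 it was -0.09.

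Snord118 (U8), which is needed for maturation of 28S and 5.8S ribosomal RNA, averaged 0.880 ± 0.336 CPM in mKO and 0.655 ± 0.0831 CPM in WT libraries (SD, n = 3 each). Snord13 (U13), the guide for acetylation of 18S ribosomal RNA, averaged 0.564 ± 0.428 CPM in mKO and 0.385 ± 0.164 CPM in WT libraries. Both overlapped and missed the threshold (edgeR adjusted p = 0.411 and 0.469), and Snord13 turned to -0.27 without mKO replicate 1. Snord15a and Snord32a, in the ribosomal protein genes Rps3 and Rpl13a, had log2 fold changes of -0.12 and -0.13 (adjusted p = 0.797 and 0.869). Snord89 held 33, 13 and 15 counts in mKO and 8, 6 and 6 counts in WT libraries without overlap, but missed the threshold (log2 fold change 1.21, edgeR adjusted p = 0.0918). It was singled out after its values were seen. The other tested box C/D genes, Snord49a, Snord19, Snord59a, Snord42b and Snord100, had log2 fold changes of 0.83, 0.58, 0.28, 0.24 and 0.10, all with overlap. The 11 box C/D genes that missed the filter held 31 to 58 counts in sum, and in the fit of all 49 genes none passed. Among them Snord43, annotated as a microRNA gene in GENCODE, had 9, 14 and 10 counts in mKO and 1, 6 and 1 counts in WT libraries (log2 fold change 1.63, edgeR adjusted p = 0.123). The 18 genes matched by symbol in the imprinted clusters, the Snord116 copies and Snord64, which are known for expression in brain, held 1 count in all 6 libraries together. Genes of imprinted clusters without a family symbol are not in this count.

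Summed over the class, H/ACA genes reached 74.1, 47.3 and 40.1 CPM in mKO libraries and 103, 87.6 and 78.8 CPM in WT libraries. The mKO sums all lay below the WT sums, with mKO replicate 1 the nearest. Box C/D genes summed to 55.1, 41.1 and 37.5 CPM in mKO and 39.8, 39.0 and 39.6 CPM in WT libraries, which overlapped, and without mKO replicate 1 their log2 change turned to -0.01, against 0.18 with all libraries. Scarna genes summed to 234, 170 and 196 CPM in mKO and 396, 325 and 332 CPM in WT libraries. Which classes separated depended on the scaling. Per library total, the H/ACA sums overlapped, at 46.3 to 88.9 CPM in mKO and 66.5 to 88.8 CPM in WT libraries. The Scarna sums then overlapped as well, at 198 to 281 CPM in mKO and 276 to 340 CPM in WT libraries. The box C/D sums did not, at 43.3 to 66.1 CPM in mKO and 33.1 to 34.2 CPM in WT libraries.

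The balance of both snoRNA classes can be read within a library, where no scaling enters. There were 1.34, 1.15 and 1.07 H/ACA counts per box C/D count in mKO libraries, against 2.60, 2.25 and 1.99 in WT libraries. The ratio averaged 1.19 ± 0.141 in mKO and 2.28 ± 0.306 in WT libraries (SD, n = 3 each), with no overlap. Since Snord17, Snora73a and Snora73b hold most of these counts, the ratio was also taken without them, a choice made after seeing the data: it was 0.972, 0.924 and 1.00 in mKO and 2.58, 2.26 and 2.81 in WT libraries. No p is given, since the genes were chosen with results known. Between single genes, there were 0.196, 0.195 and 0.294 Snora28 counts per Snord104 count in mKO libraries and 1.48, 1.15 and 1.89 in WT libraries.

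**Figure D3:**
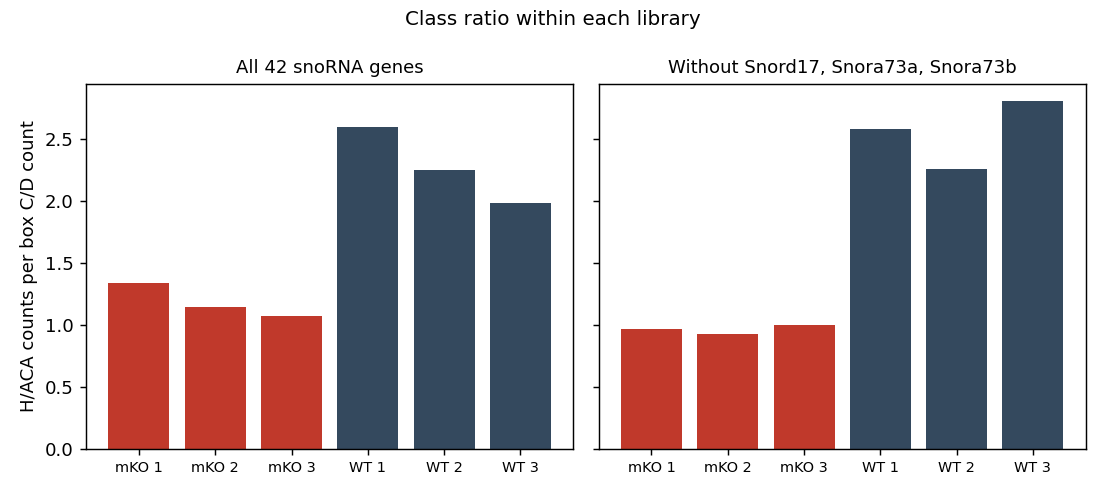
H/ACA counts per box C/D count (y axis, from 0) are drawn as 1 bar per library, mKO left of WT, for all 42 snoRNA genes and without the 3 most abundant. All mKO bars stay between 0.924 and 1.34, and all WT bars between 1.99 and 2.81.

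The level and the length of these genes went together. The 8 longest genes, of 184 to 414 bases (Snord17, Snora73a, Snora73b, Snora23 and 4 Scarna genes) held 94.1% of all counts. Per length, Scarna10 stood highest at 412 CPM per kilobase over the 6 libraries, followed by Scarna13 at 277, Snora73a at 156, Snord17 at 137 and Scarna2 at 136, whereas Snora28 reached 13.5 and Snora34 4.59. Median lengths were 78 bases for box C/D genes (65 to 238), 132 for H/ACA genes (127 to 205) and 265 for Scarna genes (70 to 414). Across the 49 genes, which share the same libraries, Spearman's rho was 0.584 between length and mean CPM, and -0.467 between length and log2 fold change in the fit of all 49 genes. Class and length are bound together here, and the part of length in the class difference was not tested. The labels give neither a size selection nor an enrichment step.

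**Figure D4:**
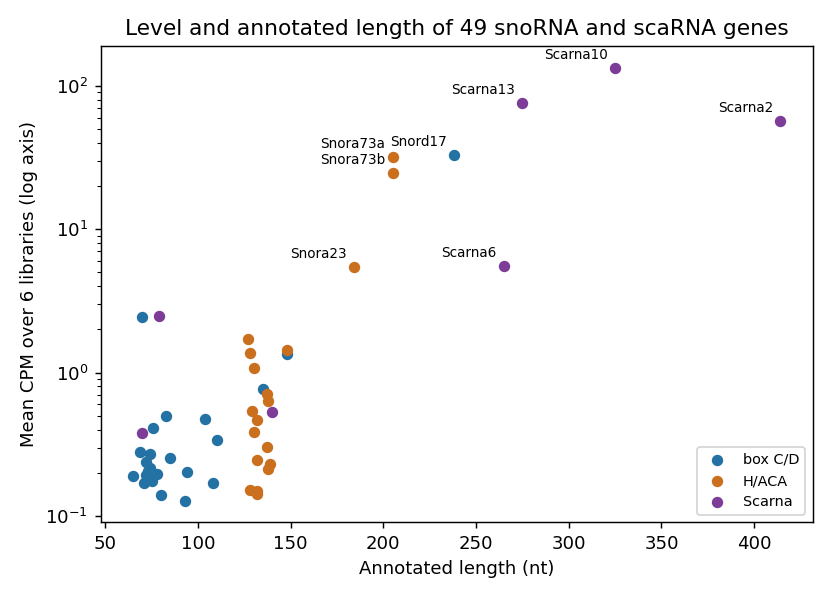
The mean CPM over the 6 libraries (y axis, log axis) is plotted against annotated length in bases (x axis) for the 49 genes, coloured by class. The 8 genes of 184 to 414 bases stand apart at the upper right, with Scarna10 at the top.

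Hosts of H/ACA genes mostly had higher log2 fold changes than the snoRNA they carry. By coordinates, 40 of the 49 genes lay within a host on the same strand, 33 hosts in all, of which 29 are protein-coding and 4 long noncoding. Of 32 tested hosts, 6 rose (18.8%, beside 18.2% of all genes) and 3 fell (9.38%, beside 18.9%), with a median log2 fold change of 0.02. Those that rose were Snhg3, Ncapd2, Rpl3, Gnl3, Tsr1 and 2410006H16Rik, and those that fell were Eif5, Atp5b and Tpt1. With library totals 23 hosts rose (71.9%, beside 49.0% of all genes) and none fell (beside 6.75% of all genes). Without mKO replicate 1 or mKO replicate 3 only 3 rose, and without WT replicate 2, 5 fell.

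For 24 pairs with both genes tested, in 21 hosts, the snoRNA or scaRNA and its host went the same way in 9 pairs and opposite ways in 15. This tally turned with the scaling: with library totals 14 pairs went the same way and 10 opposite ways. The snoRNA had the lower log2 fold change of the pair in 9 of 11 H/ACA pairs, in 0 of 9 box C/D pairs and in 2 of 4 Scarna pairs, under both scalings. Across the 24 pairs, Spearman's rho was -0.16, as a description over pairs that share libraries and in part hosts.

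Snhg3, the noncoding host of the U17 copies, averaged 10.1 ± 1.25 CPM in mKO and 6.39 ± 1.00 CPM in WT libraries (SD, n = 3 each) and rose (log2 fold change 0.65, SE 0.16, edgeR adjusted p = 0.00774), while both copies fell. There were 336, 237 and 149 Snora73a counts per 100 Snhg3 counts in mKO libraries and 789, 586 and 526 in WT libraries. The groups did not overlap in this ratio, though Snora73a overlaps an exon of Snhg3. Ncapd2, a condensin subunit and host of Scarna10, rose as well, with 7.09 ± 0.349 CPM in mKO and 4.85 ± 0.830 CPM in WT libraries (log2 fold change 0.55, edgeR adjusted p = 0.0235).

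Ipo7, a nuclear import receptor and the host of Snora23, averaged 280 ± 14.7 CPM in mKO and 275 ± 16.0 CPM in WT libraries (SD, n = 3 each), a log2 fold change of 0.02 (edgeR adjusted p = 0.887). Per 100 Ipo7 counts there were 1.39, 1.18 and 0.790 Snora23 counts in mKO libraries and 2.93, 2.83 and 2.80 in WT libraries, without overlap. Kansl2, which carries Snora34 and Snora2b, had a log2 fold change of 0.27 (adjusted p = 0.115). Eif5 fell with Snora28, by 0.47 on the log2 scale (SE 0.11, edgeR adjusted p = 0.00432). The share of the snoRNA was lower too: 0.868, 0.595 and 0.992 Snora28 counts stood per 100 Eif5 counts in mKO libraries, against 2.57, 1.98 and 2.53 in WT libraries. Snx5, a sorting nexin that hosts Snord17, had a log2 fold change of -0.27 (adjusted p = 0.0978), and Snhg9 had too few counts for the test. With 3 libraries a group an exact permutation test of 1 such ratio cannot go below p = 0.1, so none is given.

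**Figure D5:**
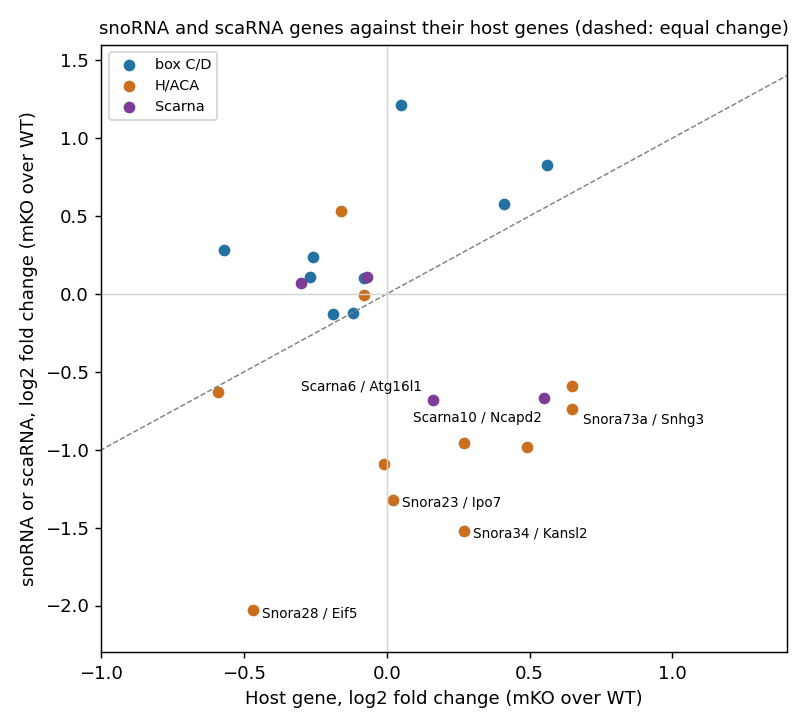
Each point is 1 of 24 pairs, with the log2 fold change of the host gene on the x axis and that of its snoRNA or scaRNA on the y axis, both mKO over WT, and the dashed line marks equal values. H/ACA points lie mostly below the line, down to Snora28 at -2.03 with Eif5 at -0.47, and no box C/D point lies below it.

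Introns that stay in RNA can give reads on the rows of intronic genes too. The class of sense intronic transcripts, which lie wholly in introns of other genes, summed to 144, 185 and 169 CPM in mKO libraries and 143, 122 and 155 CPM in WT libraries, which overlapped. As a share of all counts it took 0.0173, 0.0217 and 0.0194% in mKO libraries and 0.0123, 0.0103 and 0.0131% in WT libraries, without overlap. Of its 116 tested genes 14 rose (12.1%, beside 18.2% of all genes) and 2 fell (1.72%, beside 18.9%), with a median log2 fold change of 0.20. The part of intron reads in the snoRNA values was not tested. Among small RNAs of other kinds, the 51 tested spliceosomal RNA genes had a median of -0.01. Of them 2 were higher and 2 lower (3.92% each, beside 18.2 and 18.9% of all genes). With library totals 7 were higher and 1 lower (13.7 and 1.96%, beside 49.0 and 6.75% of all genes). Rn7sk, Rpph1, Rmrp and Terc, the RNA parts of 7SK, RNase P, RNase MRP and telomerase, had log2 fold changes of -0.13, 0.04, 0.04 and -0.41, none past the threshold. With library totals, 3 of these 4 rose, beside 49.0% of all genes.

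Of 19 genes for proteins that bind and build snoRNA complexes, 4 rose and 4 fell, and the 42.1% called stood near the 37.0% of all genes. Among 6 H/ACA core and assembly genes, Gar1 and Shq1 rose and the other 4, Dkc1, Nop10, Nhp2 and Naf1, missed the threshold (median 0.04). Gar1, a core protein of the mature complex, had 3.53, 3.10 and 3.51 CPM in mKO and 1.24, 1.56 and 2.29 CPM in WT libraries (log2 fold change 0.98, SE 0.25, edgeR adjusted p = 0.00786). Shq1, an assembly chaperone of dyskerin, had 5.86, 5.14 and 4.91 CPM in mKO and 2.37, 2.39 and 1.93 CPM in WT libraries (log2 fold change 1.25, SE 0.19, edgeR adjusted p = 0.000291). For both genes all mKO libraries lay above all WT libraries.

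Among 4 box C/D core genes, Nop58 rose (log2 fold change 0.45, edgeR adjusted p = 0.00891) and Snu13 fell (-0.32, adjusted p = 0.0460), though its direction turned with library totals. Another 9 genes were listed under box C/D assembly, a label that does not mean they serve that class alone. Of these, Nolc1 rose (0.49), and Ruvbl1 (-0.56), Pih1d1 (-0.71) and Znhit3 (-0.34) fell, with a median of -0.27. Znhit3 too turned with library totals. By share, 11.1% of the assembly genes rose and 33.3% fell, beside 18.2 and 18.9% of all genes. Of 8 Cajal body genes, Smn1 (0.76), Gemin5 (0.45) and Nolc1 rose, and Wrap53 and Gemin2 (-0.58) fell. That is 37.5% higher and 25.0% lower, beside 18.2 and 18.9% of all genes. Wrap53, which carries scaRNAs and telomerase RNA to Cajal bodies, had 1.52, 2.02 and 1.94 CPM in mKO and 4.24, 2.85 and 3.52 CPM in WT libraries, without overlap (log2 fold change -0.95, SE 0.23, edgeR adjusted p = 0.00603).

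Of 21 genes of debranching, trimming and decay, Exosc10, the nuclear exosome exonuclease, rose (0.53), and Dis3 (-0.49), Exosc1 (-0.51) and the exosome cofactor C1d (-0.62) fell. The other 17 missed the threshold (median -0.10), so 4.76% rose and 14.3% fell, beside 18.2 and 18.9% of all genes. Of 21 small-subunit processome and ribosomal RNA synthesis genes, 8 rose, among them Utp14a (0.62) and nucleolin, Ncl (0.45), and 3 fell, among them Utp6 (-0.84) and Polr1b (-0.65), with a median of 0.27. That is 38.1% higher and 14.3% lower, beside 18.2 and 18.9% of all genes. Of 8 genes of nonsense-mediated decay, which degrades many spliced snoRNA host transcripts, 3 rose, namely Upf1 (0.60), Smg6 (0.53) and Smg1 (0.37). Another 2 fell, Upf2 (-0.37) among them, which turned to 0.10 with library totals. By share, 37.5% of this list rose and 25.0% fell, beside 18.2 and 18.9% of all genes. Of 16 tested genes listed as noncoding hosts of small RNAs, not of snoRNAs alone, 5 rose (31.2%, beside 18.2% of all genes) and 1 fell (6.25%, beside 18.9%). Those that rose included Rian (0.65), Mirg (0.75) and Snhg15 (1.02) besides Snhg3. With library totals the lists counted 3 to 17 genes higher each, where 49.0% of all genes were higher and 6.75% lower. Every lower call on these lists but that of Utp6 was then lost, Wrap53 included.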

How the data were processed

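Values were whole-number counts per gene, deposited as 1 table per library; per the file headers they were summed over the exons of each Ensembl gene. The submitters' processing notes name STAR 2.5.2b, featureCounts (Subread 1.5.2), Trimmomatic 0.36 and build GRCm38. The NEBNext Ultra kit, per the labels' protocols, does not mark strand as named; how strand and multiply mapped reads were counted is not given in the sources used here. Symbols were matched by gene identifier (48970 of 49315 genes), and classes and transcripts came from GENCODE M21.

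Groups were taken from the titles. edgeR 4.0.16 fitted the quasi-likelihood test over all 16650 genes passing filterByExpr, with TMM factors and Benjamini-Hochberg adjustment at 0.05. The fit was also run on simulated counts with equal numbers of genes raised and lowered, which cannot check the choice of scaling. DESeq2 1.42.0, other scalings, filters, left-out libraries and a replicate block were alternatives. Hosts were the shortest gene spanning the snoRNA on its strand. Named genes were the 6 most abundant per class, up to 6 called per direction, their hosts and up to 4 called per list. The genes and lists were chosen with earlier results of these data known. Precision rests on 3 libraries a group.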

Additional observations from a re-analysis of the deposited data

How the results depend on the processing

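Snora28, Snora23, Snora78 and Scarna13 passed the threshold in all 12 alternative fits. Scaling by library totals moved the counts most: 4 snoRNA and scaRNA genes rose and 4 fell (1 and 10 with TMM), 3 box C/D and 1 H/ACA genes rose, 3 H/ACA genes and 1 Scarna gene fell, 23 hosts rose and 0 fell. Of all genes, 49.0% were higher and 6.75% lower with that scaling. The log2 change of the summed box C/D level was then 0.64 (0.18 with TMM) and that of the summed H/ACA level -0.27 (-0.74 with TMM); the cause was not tested. At an adjusted p of 0.01, 0 genes rose and 5 fell: 0 box C/D higher, 3 H/ACA and 2 Scarna lower, with 3 hosts higher. The share of all genes called at 0.01 is not given here, so these counts cannot be set beside it. Without genes whose exons overlap another gene, 5 fell (3 H/ACA, 2 Scarna), fewer genes being counted, and the log2 ratio of H/ACA to box C/D was -1.20. That ratio was -1.16 without the most abundant gene of each class, against -0.94 for all.

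With each library left out in turn, 0 to 2 genes rose and 5 to 11 fell. Box C/D genes higher were 0 to 1, H/ACA genes higher 0 to 1 and lower 3 to 7, Scarna genes lower 2 to 4, hosts higher 3 to 6 and lower 2 to 5. The fewest snoRNA and scaRNA genes fell without mKO replicate 3. The shares of all genes called in the fits with a library left out are not given here, so these counts cannot be set beside them. The alternatives for the Scarna genes, the lists, the host pairs and the genes without a family symbol were added after seeing the data.

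Turned directions under library totals were Snord15a 0.35, Snord32a 0.34, Snora57 0.34, Scarna2 0.04, Scarna17 0.18, Snx5 0.19, Rps3 0.35, Rpl13a 0.27, Cop1 0.16 and Snora33 0.45 among the snoRNA, scaRNA and host genes printed, and Snu13 0.15, Znhit3 0.13, Rrn3 0.09, Upf2 0.10 and Upf3a 0.05 among the called genes of the protein lists. With a library left out, the log2 changes of Snord15a ranged from -0.31 to 0.12, Snord32a from -0.85 to 0.22, Snord13 from -0.27 to 0.87, Snora57 from -0.24 to 0.05, Scarna3a from -0.27 to 0.26 and Ipo7 from -0.02 to 0.07. Values that turned without mKO replicate 1 were Snord17 -0.09, Snord13 -0.27, Scarna3a -0.27, Ipo7 -0.01 and the summed box C/D level, -0.01. Without mKO replicate 2, Snord32a was 0.22. Without mKO replicate 3, Snord15a was 0.06 and Snord32a 0.05. Without WT replicate 1, Snord15a was 0.12, Snora57 0.05 and Ipo7 -0.02.

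Same-numbered libraries shared no clear deviation, with correlations of deviations of 0.0185, -0.00202 and 0.0224. With 3 libraries a group, such values cannot show whether the samples were paired. With the replicate block 1 gene rose and 10 fell, as without it, with 1 box C/D gene higher, 6 H/ACA and 4 Scarna genes lower, 6 hosts higher and 3 lower, and no call of the 29 named genes tested changed.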

Other observations

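Most annotated snoRNA genes in the mouse carry a provisional Gm symbol and no family name, so the symbol rule passes them over. Among genes of the annotation classes snoRNA and scaRNA without a family symbol, 77 had at least 30 counts and 42 passed the low-count filter. Of these 42, 0 rose and 19 fell (edgeR adjusted p under 0.05), with a median log2 fold change of -1.01, beside 18.2% higher and 18.9% lower among all 16650 genes. The 19 that fell were all of the class snoRNA, and none of the 5 tested scaRNA genes passed. With library totals 14 of the 19 still fell, the calls of Gm26448, Gm24727, Gm25117, Gm24620 and Gm26493 were lost, and 6 of the 42 rose, namely Gm22009, Gm25395, Gm24339, Gm22442, Gm23130 and Gm22532, beside 49.0% higher and 6.75% lower among all genes.

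Sorted by the same boxes as above, 17 of 26 tested Gm snoRNA genes with an ACA box fell and none rose, 0 of 3 with boxes C and D passed, 0 of 2 with both passed, and 2 of 6 with neither fell. Gm25291, with 25.4, 14.7 and 14.2 CPM in mKO and 145, 113 and 86.3 CPM in WT libraries, was 6.34-fold lower (log2 fold change -2.67, SE 0.23, edgeR adjusted p = 4.3e-06). Gm26397 had 15.3, 11.7 and 11 CPM in mKO and 60.7, 42.1 and 34.7 CPM in WT libraries (log2 fold change -1.85, adjusted p = 1.54e-05). Gm22748 (-2.54), Gm25788 (-2.45) and Gm25394 (-2.15) fell too, all 3 with an ACA box. In each of these 5 genes the groups did not overlap, and all 5 fell with library totals as well (log2 fold changes of -2.20, -1.39, -2.07, -1.98 and -1.68).

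The abundant scaRNA genes of this kind had other values. Gm22009, with boxes C and D, averaged 135 ± 14.3 CPM in mKO and 125 ± 11.4 CPM in WT libraries (SD, n = 3 each; log2 fold change 0.12, edgeR adjusted p = 0.483). Gm25395 averaged 49.8 ± 9.62 CPM in mKO and 41.8 ± 5.37 CPM in WT libraries (log2 fold change 0.25, adjusted p = 0.195). With library totals both passed as higher, with log2 fold changes of 0.58 (adjusted p = 0.00117) and 0.72 (adjusted p = 0.00161). These genes were singled out after their values were seen, near-identical copies can share reads, and no test compared them with the named families.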
